A study of Mus musculus with 5 samples.

Results

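Foxp3, Ikzf2, Ikzf4 and Nrp1 are genes closely tied to the identity of regulatory T (Treg) cells, and their acetylation of histone H3 at lysine 27 (H3K27ac) was measured in Treg cells of the large intestine with and without the histone methyltransferase Setd2. No difference between the genotypes at the 4 genes passed the unpaired test over all peaks or all genes. H3K27ac of the Foxp3, Ikzf2 and Ikzf4 loci had fitted KO over Ctrl log2 ratios between 0.24 and 0.42, and that of Nrp1 had 0.10, while an offset fitted to signal level (loess) turned Ikzf2 to −0.07 and Nrp1 to −0.12. The members were the peaks that overlap each gene, from its outermost annotated start to its outermost end, or the 20 kb on either side. These were 142 of the 124158 peaks of the series: 13 at Foxp3, 65 at Ikzf2, 8 at Ikzf4 and 56 at Nrp1.

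FOXP3 is the forkhead transcription factor that defines Treg cells. Ikzf2 and Ikzf4 encode Helios and Eos, zinc finger proteins of the Ikaros family. Helios marks most Treg cells that arise in the thymus, and Eos binds FOXP3 and helps it to silence its targets. Nrp1 encodes neuropilin-1, a surface co-receptor for semaphorins and vascular endothelial growth factor that is also high on thymic Treg cells. H3K27ac marks active promoters and enhancers. Foxp3 is controlled by its promoter and by conserved non-coding sequences (CNS): CNS1, which matters for induction outside the thymus, and CNS2, whose CpG sites are demethylated in stable Treg cells, lie before the first coding exon. CNS3, which helps the gene to be switched on, lies just after that exon, and CNS0 lies upstream of the promoter.

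All mice carried the Foxp3Cre-YFP allele on the C57BL/6 background and were 2 weeks of age. Ctrl mice had 1 floxed and 1 normal Setd2 allele (Setd2 f/+), and KO mice had both alleles floxed (Setd2 f/f), so Cre acted in cells that express Foxp3 in either group. CD3+CD4+Foxp3-YFP+ cells were sorted from the large intestine, and each library held cells pooled from several littermates of both sexes, in a proportion that is not given. Each genotype had 2 libraries, made by CUT&Tag, in which an antibody directs a transposase to the mark so that adapters are inserted beside it. The Cre-YFP cassette sits in the Foxp3 gene itself, downstream of its coding sequence, so that the Foxp3 locus was a modified allele in every library and was also the basis of the sort. Setd2 lays down trimethylation of lysine 36 of histone H3 over transcribed genes, and the comparison asks how H3K27ac at the 4 loci differs once Setd2 is lost.

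Counts in peaks came to 2395002 and 3630447 for Ctrl 1 and Ctrl 2, and to 3007444 and 4712473 for KO 1 and KO 2. Values below are CPM, the counts of a library brought to a common total after scaling by the trimmed mean of M-values (TMM), and a log2 ratio is KO over Ctrl in edgeR. The sorted cells carried H3K27ac at T cell promoters, with a summed level of 571 to 915 CPM over 4 genes per library, and at the promoters of 5 Treg markers, with 760 to 1120 CPM. The Treg markers were Foxp3, Il2ra, Ctla4, Ikzf2 and Tnfrsf18, so their sum includes Foxp3 and Ikzf2 themselves. Promoters of other cell types were low: 6.25 to 11.3 CPM for 3 genes of CD8 T cells with 2 promoters at 0, 15.4 to 26.1 for 5 genes of B cells with 2 at 0, 15.2 to 38 for 5 myeloid genes with 3 at 0, and 14 to 21.1 for 5 epithelial genes with 1 at 0. The range was 39 to 78.2 CPM for 4 genes of innate lymphoid or NK cells, with 2 at 0, and 78.7 to 107 CPM for 4 stromal genes, with 2 at 0. Single genes carried most of these sums, Id2 with a mean of 43.0 CPM and Pecam1 with 92.3 CPM, and T cells also express both. H3K27ac over Setd2 itself cannot show that the floxed alleles were deleted: its window had 130 and 179 CPM in Ctrl and 101 and 138 CPM in KO.

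Foxp3 (ENSMUSG00000039521.13, mm10 chromosome X, 7573644 to 7595245, plus strand) held H3K27ac over the whole gene and far upstream of it. The summed window had 255 and 300 CPM in Ctrl and 295.5 and 448.5 CPM in KO. KO 2 stood above the other 3 libraries, and KO 1 lay just below Ctrl 2, so that the groups overlapped. The log2 ratio was 0.42 (SE 0.26, 95% interval −0.15 to 0.998, edgeR adjusted p 1), and it was 0.06 when KO 2 was left out and 0.68 when KO 1 was. Over all 16106 gene windows tested, edgeR called 0 at an adjusted p under 0.05 (percent called 0.0), and DESeq2 also called 0. At an unadjusted p under 0.05, edgeR had 54 windows higher (0.335%) and 355 lower (2.2%) in KO, and DESeq2 46 and 263. None of the 4 genes was among them.

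**Figure D1:**
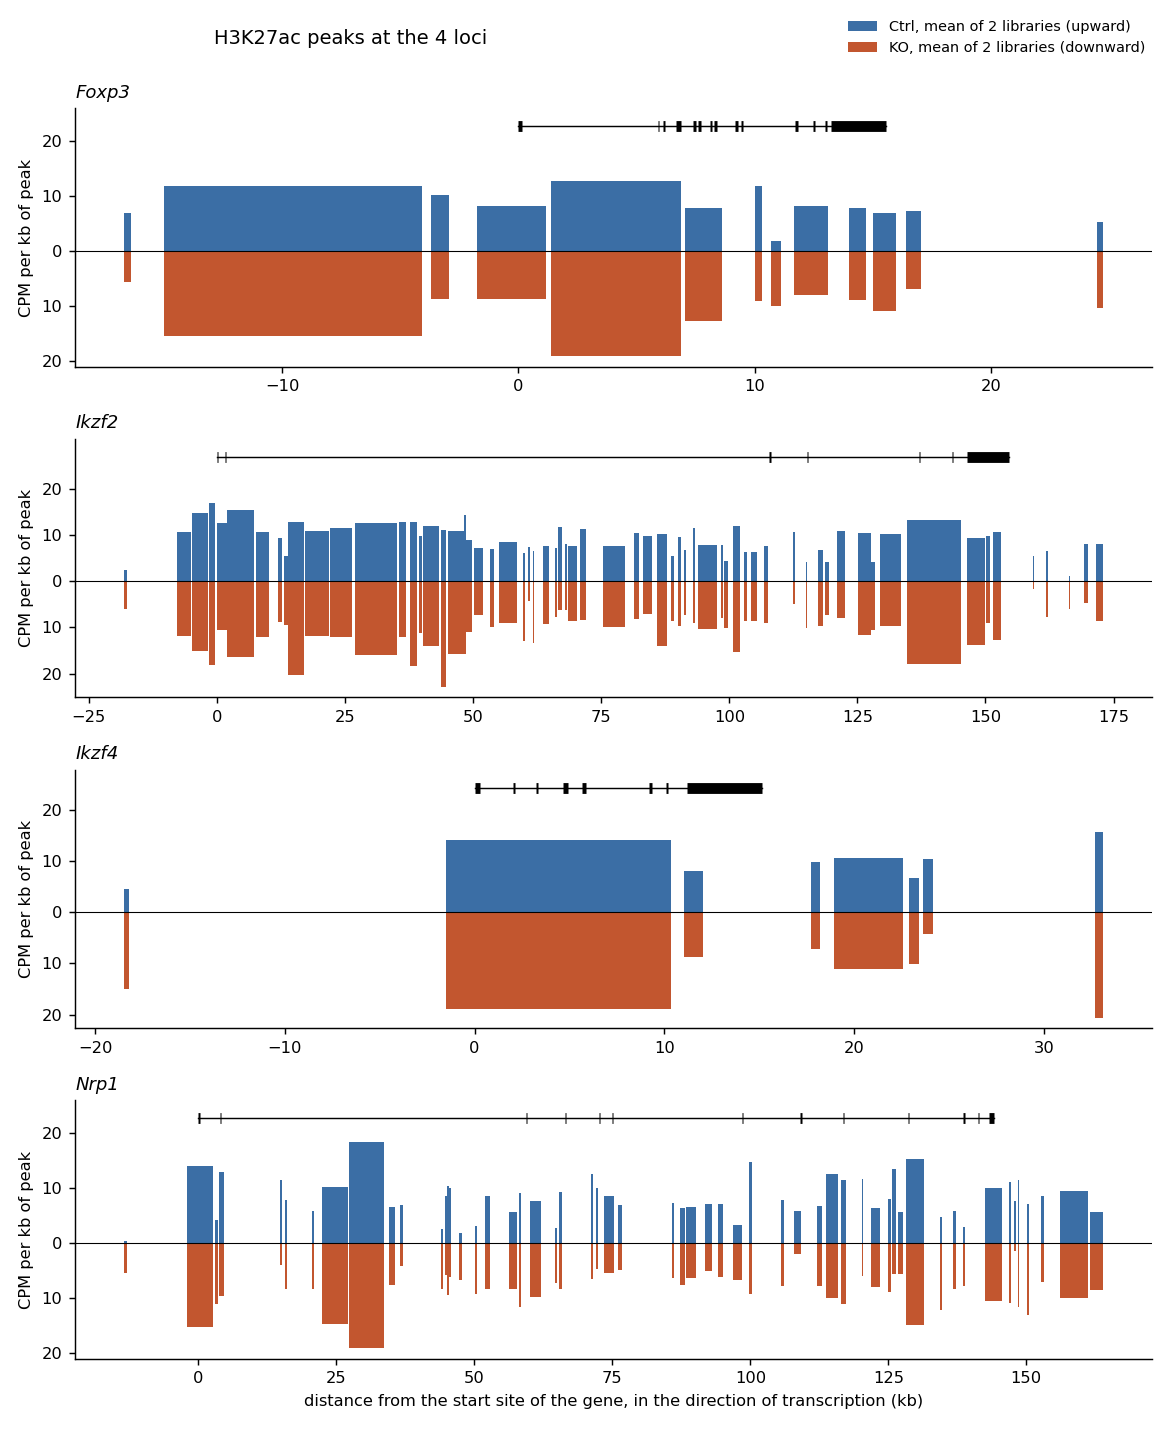
H3K27ac at the 4 loci: the x axis is the distance from the start site in kb, bars span each peak, and their height is the mean CPM per kb of peak of the 2 Ctrl libraries (upward) or the 2 KO libraries (downward). The black line and boxes are the reference transcript with its exons. At Foxp3 the signal lies in a block upstream of the promoter and in a block over the introns before the first coding exon, at Ikzf4 mostly in a single block over the gene, and at Ikzf2 and Nrp1 in many peaks along the gene.

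The largest Foxp3 peak lay upstream of the promoter. It was 10914 bp wide, from −14.99 to −4.08 kb relative to the start site of the reference transcript, and took 44.4% to 47.5% of the counts of the window in each library. It had 114 and 142.5 CPM in Ctrl and 138 and 199 CPM in KO, and the groups overlapped (log2 ratio 0.39, SE 0.26, adjusted p 0.998). The ratio was 0.07 without KO 2 and 0.14 under the loess offset. The annotation reaches this peak only through the outermost Foxp3 transcript, and the peak also covers the start site of Ppp1r3f, which encodes a regulatory subunit of protein phosphatase 1. Signal of CNS0, of Ppp1r3f and of the outermost Foxp3 start could not be told apart within it.

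The peak over the main promoter, 2918 bp wide, was smaller. It had 24.0 and 23.5 CPM in Ctrl and 19.8 and 31.9 CPM in KO, and the KO libraries fell on either side of the Ctrl libraries (log2 ratio 0.13, SE 0.37). A further peak, 782 bp wide and upstream of it, from −3.70 to −2.92 kb, had 8.60, 7.14, 5.22 and 8.39 CPM in Ctrl 1, Ctrl 2, KO 1 and KO 2 (log2 ratio −0.18, SE 0.59). Neither showed a difference beyond the spread of its libraries.

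The second largest Foxp3 peak began 1.38 kb after the start site and ended 6.87 kb after it, in the first coding exon, and so covered the introns in which CNS1 and CNS2 are known to lie. It was 5497 bp wide and had 57.5 and 81.2 CPM in Ctrl and 83.8 and 127 CPM in KO. Each KO library exceeded each Ctrl library, though KO 1 was above Ctrl 2 only by a small margin. The log2 ratio was 0.60 (SE 0.28, 95% interval 0.05 to 1.16) with an unadjusted p of 0.0329 and an adjusted p of 0.998 over the 74550 peaks tested, and it was 0.23 without KO 2 and 0.37 without Ctrl 1. The next peak lay 7.08 to 8.63 kb after the start site. The first coding exon ends at 6.89 kb, so the peak leaves out the first part of the intron in which CNS3 lies. Whether it holds CNS3 was not determined. The peak had 14.02 and 9.82 CPM in Ctrl and 15.7 and 24.0 CPM in KO. Both KO libraries were again above both Ctrl libraries (log2 ratio 0.76, SE 0.44, unadjusted p 0.0831, adjusted p 0.998), and the ratio was 0.38 without KO 2.

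The reference sequences under the Foxp3 signal are given to show where the CpG sites lie. Each is the stretch of 200 bases that held the most CpG sites among the exon-free positions of its peak, read from GRCm38.p6 (mm10) on the plus strand, with every CG in capitals. The label CNS3 marks the peak that begins inside the intron of CNS3 and may not hold the element. The last line is the 141 bases of the RefSeq promoter entry upstream of all annotated coding transcripts of the main promoter.
Foxp3 upstream peak, chrX:7574284-7574483: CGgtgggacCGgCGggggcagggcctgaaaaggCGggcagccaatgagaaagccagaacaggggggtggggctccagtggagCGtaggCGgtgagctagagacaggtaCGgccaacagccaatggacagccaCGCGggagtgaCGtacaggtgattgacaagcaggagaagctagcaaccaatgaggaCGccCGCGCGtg
Foxp3 peak of CNS1 and CNS2, chrX:7583950-7584149: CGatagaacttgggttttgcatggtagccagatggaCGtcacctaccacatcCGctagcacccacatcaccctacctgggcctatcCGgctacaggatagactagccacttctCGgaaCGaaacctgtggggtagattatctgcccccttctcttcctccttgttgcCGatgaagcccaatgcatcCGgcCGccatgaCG
Foxp3 peak of CNS3, chrX:7586783-7586982: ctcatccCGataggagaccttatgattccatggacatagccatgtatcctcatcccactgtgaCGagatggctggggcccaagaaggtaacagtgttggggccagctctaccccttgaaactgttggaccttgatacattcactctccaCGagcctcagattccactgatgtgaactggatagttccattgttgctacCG
Foxp3 promoter, chrX:7579426-7579566: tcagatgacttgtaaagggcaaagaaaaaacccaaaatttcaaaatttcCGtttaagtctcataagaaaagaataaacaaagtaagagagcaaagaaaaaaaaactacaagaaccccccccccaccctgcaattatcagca

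The stretch in the CNS1 and CNS2 peak began 4.27 kb after the start site and held 10 CpG sites, which was more than in 91% of the 113019 peaks of the series with such a stretch, whose median was 3. The upstream stretch held 14, the stretch beside CNS3 held 4 and the promoter stretch held 1. Motifs were searched on both strands. The RUNX motif TGTGGT began at base 45 of the CpG-rich intronic stretch (on the minus strand) and the STAT motif TTCNNNGAA at base 110, whereas the cAMP response element TGACGTCA, the AP-1 motif TGANTCA and the forkhead motif GTAAACA were not found in these letters. Among the CpG-richest stretches of all peaks, 16.2% held the RUNX motif, 5.46% the STAT motif, 0.311% the cAMP response element, 6.2% the AP-1 motif and 2.75% the forkhead motif. No match of the 5 motifs was found in the other 3 Foxp3 stretches. In the first 141 bases of all 32851 RefSeq promoter entries the shares were 8.27%, 4.13%, 0.32%, 3.7% and 1.91%, in the same order. No motif of a set overlapped another in the printed stretches, and a match is a description of the letters only.

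The 3' part of Foxp3 carried little signal. A peak of 456 bp in intron 10 had 1, 4, 11 and 21 counts in Ctrl 1, Ctrl 2, KO 1 and KO 2 (log2 ratio 2.35, SE 1.22, unadjusted p 0.0543), so that its ratio rests on few counts. The peak over exons 11 to 13 had 9.50 and 13.1 CPM in Ctrl and 8.57 and 13.9 CPM in KO (log2 ratio 0.00, SE 0.49), and the groups overlapped. Exon 14, the last exon, held 2 peaks with log2 ratios of 0.27 (SE 0.64) and 0.69 (SE 0.54), which were −0.6 and 0.07 without KO 2. Of the 13 Foxp3 peaks, 3 had too few counts to be tested, 8 of the other 10 had a ratio above 0, and 4 of the 10 had the groups apart, with KO higher. Among all tested peaks 16.9% had the groups apart with KO higher, and 16.4% had them apart with KO lower.

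Since Foxp3 is X-linked and the share of males in each pool is not given, the window was also set against chromosome X. Peaks on chromosome X took 1.29% and 1.09% of all counts in Ctrl and 1.21% and 1.12% in KO. The Foxp3 window took 1.83% and 2.54% of the chromosome X counts in Ctrl and 2.18% and 3.53% in KO. The groups overlapped (exact two-sided permutation test p = 0.667, where 0.33 is the smallest p that 2 against 2 libraries allow). Scaled to the other chromosome X peaks, the log2 ratio of the window was 0.40.

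The neighbouring genes shared most of these peaks. Protein-coding genes with a start site inside the Foxp3 window were Ppp1r3f, Ccdc22, which encodes a protein of endosomal sorting, and Cacna1f, which encodes a calcium channel subunit. Their own windows had log2 ratios of 0.42, 0.43 and 0.58, none past the test. Without peaks within 3 kb of the start of another protein-coding gene, the Foxp3 ratio was 0.47, as large as with the promoters of its neighbours.

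Ikzf2 (ENSMUSG00000025997.13, chromosome 1, 69531214 to 69687245, minus strand) carried the most H3K27ac of the 4 windows in sum, in 65 peaks that covered 114 kb. The window had 1196 and 1245 CPM in Ctrl and 1310 and 1563 CPM in KO. Each KO library exceeded each Ctrl library, by a small margin for KO 1 (log2 ratio 0.24, SE 0.19, 95% interval −0.18 to 0.65, edgeR adjusted p 1). Such an order was found in 11.9% of all tested windows, and the reverse order in 16.8%. When the difference was taken relative to gene windows of like summed signal by a loess offset, the ratio was −0.07, so the direction at Ikzf2 depended on that choice. It was 0.07 without KO 2. Under the same offset the Foxp3 and Ikzf4 windows had 0.27 and 0.23.

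At Ikzf2 the promoter and the gene body differed in what the libraries showed. Peaks within 3 kb of its start sites had 180 and 160 CPM in Ctrl and 166 and 178 CPM in KO, with the KO libraries between the Ctrl libraries (log2 ratio 0.02, SE 0.24, and −0.22 under the loess offset). The 54 peaks inside the gene had 963 and 1033 CPM in Ctrl and 1093 and 1324 CPM in KO, and each KO library exceeded each Ctrl library (log2 ratio 0.28, SE 0.17, adjusted p 0.666, 0.01 under the loess offset and 0.1 without KO 2). For comparison, 17.8% of all promoter sums and 10.2% of all gene body sums had that order. The difference between the promoter and the gene body ratio was not tested.

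The strongest Ikzf2 peak lay near the 3' end of the gene, over exons 6 and 7, 134.72 to 145.24 kb from the start site of the reference transcript. It was 10520 bp wide and had 140 and 141 CPM in Ctrl and 192 and 184 CPM in KO. The Ctrl libraries were close to each other, as were the KO libraries, and the groups did not overlap (log2 ratio 0.42, SE 0.26, adjusted p 0.998, and 0.17 under the loess offset). The next in rank, in intron 3 from 26.92 to 35.11 kb, had 96.8 and 112 CPM in Ctrl and 121 and 140 CPM in KO (log2 ratio 0.32, SE 0.27, and 0.17 without KO 2 or 0.09 under the loess offset). The strongest peak at the start sites, from 2.05 to 7.20 kb, had 88.2, 72.6, 85.7 and 83.1 CPM in Ctrl 1, Ctrl 2, KO 1 and KO 2, and the groups overlapped (log2 ratio 0.07, SE 0.28).

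Smaller intronic peaks gave the lowest unadjusted p at this locus. A peak of 962 bp in intron 3, 43.68 to 44.64 kb from the start site, had 12.7 and 8.63 CPM in Ctrl and 19.4 and 24.7 CPM in KO (log2 ratio 1.07, SE 0.44, unadjusted p 0.0143, adjusted p 0.998). Another in the same intron, from 13.93 to 17.07 kb, had 35.3 and 46.1 CPM in Ctrl and 55.5 and 71.9 CPM in KO (log2 ratio 0.64, SE 0.31, unadjusted p 0.0362), and is named here after its values were seen. In both, each KO library was above each Ctrl library. The lower peak with the smallest p, also in intron 3, had 9.50 and 6.84 CPM in Ctrl and 4.47 and 4.07 CPM in KO (log2 ratio −0.92, SE 0.65, unadjusted p 0.157).

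**Figure D2:**
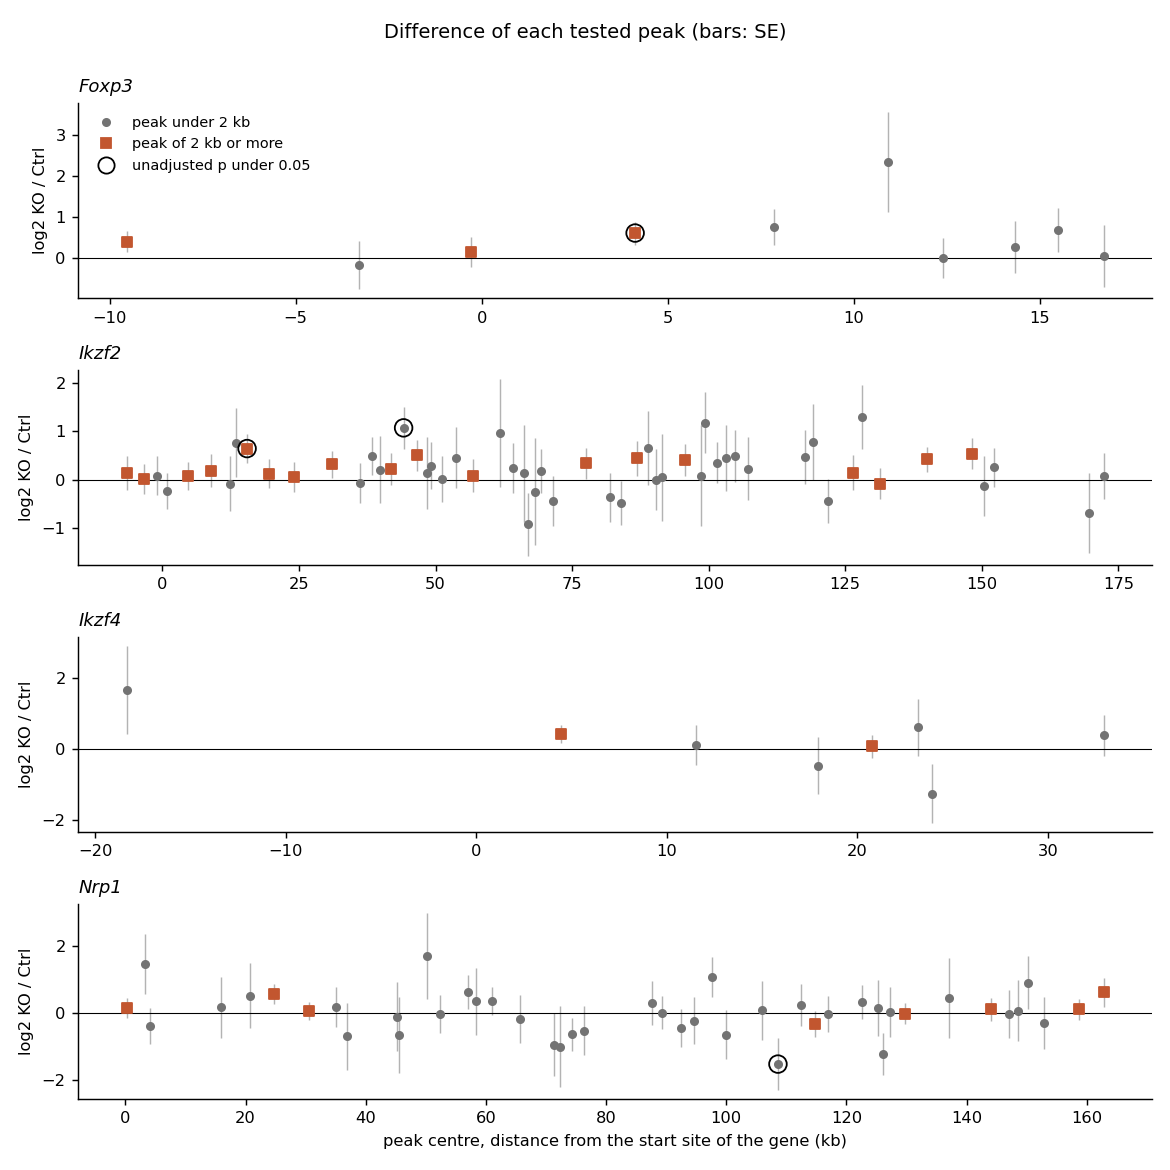
Each tested peak of the 4 genes: the x axis is the distance of the peak centre from the start site in kb and the y axis the log2 ratio of KO over Ctrl with its SE. Squares are peaks of 2 kb or more, dots are narrower peaks, and rings mark the 4 peaks with an unadjusted p under 0.05. Of the 31 squares, 28 lie above 0 and 3 below, the lowest at −0.33. The widest scatter is among the narrow peaks.

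Reference sequence is shown for the Ikzf2 peak with the most signal and for the one with the smallest p, by the same rule as above, because neither lies at a promoter.
Ikzf2 peak over exons 6 and 7, chr1:69548387-69548586: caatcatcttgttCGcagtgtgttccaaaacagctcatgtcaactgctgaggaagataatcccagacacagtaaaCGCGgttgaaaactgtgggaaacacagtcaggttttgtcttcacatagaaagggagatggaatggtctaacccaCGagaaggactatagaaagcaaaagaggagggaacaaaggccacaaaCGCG
Ikzf2 intron 3 peak, chr1:69641834-69642033: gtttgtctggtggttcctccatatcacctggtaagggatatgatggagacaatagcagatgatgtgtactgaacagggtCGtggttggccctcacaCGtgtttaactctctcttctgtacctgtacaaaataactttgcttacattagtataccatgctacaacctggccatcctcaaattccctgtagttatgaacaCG
They held 6 and 3 CpG sites and none of the 5 motifs. Over the 60 Ikzf2 peaks with an exon-free stretch, the median was 4 CpG sites and the most was 29, with the RUNX motif in 10 of them and the STAT motif in 2.

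Ikzf4 (ENSMUSG00000002578.17, chromosome 10, 128630843 to 128645991, minus strand) carried most of its signal in 1 peak. This peak was 11832 bp wide, rank 131 by width among all 124158 peaks, and ran from 1.48 kb before the start site to 10.35 kb after it, over exons 1 to 7. It had 160 and 173 CPM in Ctrl and 206 and 244 CPM in KO, and took 68.6% to 78.1% of the counts of the window. Each KO library exceeded each Ctrl library, and the lower KO library stood clear of the higher Ctrl library. The log2 ratio was 0.43 (SE 0.26, 95% interval −0.07 to 0.94, unadjusted p 0.0894, adjusted p 0.998) and was 0.27 without KO 2 and 0.16 under the loess offset.

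The whole Ikzf4 window had 233 and 236 CPM in Ctrl and 283 and 313 CPM in KO, with no overlap of the groups (log2 ratio 0.34, SE 0.21, 95% interval −0.13 to 0.82, edgeR adjusted p 1). Rps26, which encodes a protein of the small ribosomal subunit, starts inside this window. Its promoter peaks had 46.6 and 39.9 CPM in Ctrl and 45.1 and 42.9 CPM in KO, so that the neighbour showed no such gap (log2 ratio 0.03, SE 0.27). The lower peak with the smallest p, 23.61 to 24.18 kb from the Ikzf4 start site and past the end of the gene, had 5.88 and 5.95 CPM in Ctrl and 2.24 and 2.64 CPM in KO (log2 ratio −1.26, SE 0.83, unadjusted p 0.129). The 4 remaining peaks outside the Rps26 promoter had between 0.90 and 10.8 CPM in each library.
The CpG-richest exon-free stretch of the main peak is given because the peak is the Ikzf4 signal, and no RefSeq promoter entry was at hand for Ikzf2 or Ikzf4.
Ikzf4 main peak, chr10:128636968-128637167: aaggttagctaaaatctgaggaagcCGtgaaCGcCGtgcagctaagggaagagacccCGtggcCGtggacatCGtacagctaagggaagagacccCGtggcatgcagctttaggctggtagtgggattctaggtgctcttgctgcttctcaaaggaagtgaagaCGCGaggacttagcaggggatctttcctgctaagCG
It lay 8.82 kb after the start site, held 10 CpG sites, and none of the 5 motifs.

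Nrp1 (ENSMUSG00000025810.9, chromosome 8, 128358604 to 128503363, plus strand) was the gene with the least difference. Its window of 56 peaks had 651 and 622 CPM in Ctrl and 691 and 674 CPM in KO. The groups did not overlap, but the gap was small beside the SE (log2 ratio 0.10, SE 0.19, 95% interval −0.33 to 0.54, edgeR adjusted p 1). The sign was not stable, with −0.12 under the loess offset. Nor was the rank: without KO 2 the window ratio was 0.09 at Nrp1, 0.06 at Foxp3, 0.07 at Ikzf2 and 0.24 at Ikzf4. The promoter peak had 70.1 and 61.9 CPM in Ctrl and 79.7 and 66.1 CPM in KO, with overlap (log2 ratio 0.14, SE 0.29). The 47 peaks inside the gene summed to 492 and 490 CPM in Ctrl and 507 and 528 CPM in KO (log2 ratio 0.07, SE 0.21).

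Intron 2 of Nrp1 held its strongest peak and, beside it, a further wide peak. The stronger, from 27.34 to 33.71 kb after the start site, had 102 and 130 CPM in Ctrl and 114 and 130 CPM in KO, and the groups overlapped (log2 ratio 0.07, SE 0.27). The one before it, from 22.48 to 27.12 kb, had 50.2 and 43.1 CPM in Ctrl and 68.9 and 68.3 CPM in KO. Here, each KO library exceeded each Ctrl library (log2 ratio 0.56, SE 0.30, unadjusted p 0.0648, adjusted p 0.998). A weak peak over exon 9, 108.00 to 109.20 kb from the start site, had 4.07 and 9.82 CPM in Ctrl and 2.24 and 2.64 CPM in KO (log2 ratio −1.51, SE 0.77, unadjusted p 0.0484, adjusted p 0.998). It was the only one of the 142 peaks that was lower at an unadjusted p under 0.05 in edgeR.
The sequences of the intronic pair and the bases upstream of the RefSeq start of Nrp1 are shown to set the CpG sites of a promoter beside those of intronic peaks.
Nrp1 promoter, chr8:128358823-128359072: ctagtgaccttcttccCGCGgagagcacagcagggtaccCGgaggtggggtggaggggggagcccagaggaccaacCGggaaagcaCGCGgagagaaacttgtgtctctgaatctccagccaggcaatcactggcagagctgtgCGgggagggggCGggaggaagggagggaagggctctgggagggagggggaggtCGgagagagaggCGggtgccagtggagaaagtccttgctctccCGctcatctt
Nrp1 intron 2 peak from 22.48 kb, chr8:128384800-128384999: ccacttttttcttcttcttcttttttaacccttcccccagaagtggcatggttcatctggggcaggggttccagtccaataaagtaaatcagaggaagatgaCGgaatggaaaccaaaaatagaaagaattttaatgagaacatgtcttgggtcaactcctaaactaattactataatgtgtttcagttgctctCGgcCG
Nrp1 intron 2 peak from 27.34 kb, chr8:128387846-128388045: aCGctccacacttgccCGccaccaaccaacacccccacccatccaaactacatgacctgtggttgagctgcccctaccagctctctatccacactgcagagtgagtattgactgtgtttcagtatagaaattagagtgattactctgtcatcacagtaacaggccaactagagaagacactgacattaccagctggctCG
The promoter stretch of 250 bases held 11 CpG sites and each intronic stretch of 200 bases held 3, the median of all peaks. The RUNX motif began at base 58 of the stretch from the stronger peak and the other 4 motifs were not found in these letters. In the first 250 bases of all RefSeq promoter entries, 14% held the RUNX motif, 7.02% the STAT motif, 1.55% the cAMP response element, 6.75% the AP-1 motif and 3.17% the forkhead motif.

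Per kb of peak, the 4 loci were alike in level. Ctrl 1 and Ctrl 2 had 12.5 and 12.6 CPM per kb at Ikzf4, 10.5 and 10.9 at Ikzf2, 9.53 and 11.2 at Foxp3, and 10 and 9.58 at Nrp1. Ikzf4 was above the other genes in both Ctrl libraries, while Ikzf2, Foxp3 and Nrp1 were within the spread of the Foxp3 values. In KO 1 and KO 2 the levels were 15.1 and 16.7 at Ikzf4, 11 and 16.7 at Foxp3, 11.5 and 13.7 at Ikzf2, and 10.6 and 10.4 at Nrp1. The spread between the KO libraries was widest at Foxp3.

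**Figure D3:**
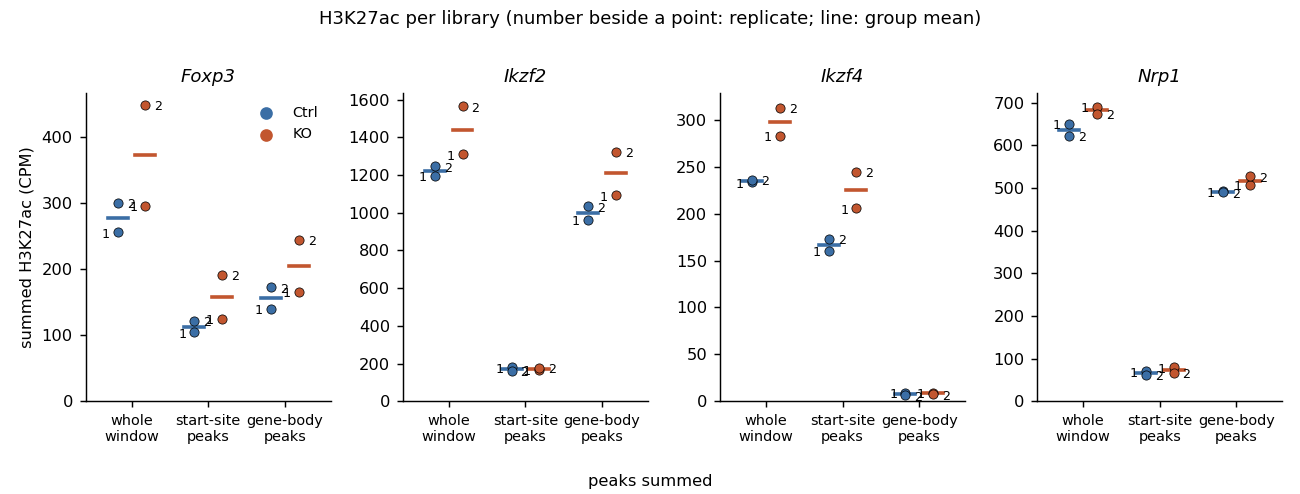
Summed H3K27ac in CPM (y axis, from 0) for each library: points are libraries numbered by replicate and lines are the means of the 2 libraries of a group. For each gene the whole window, the peaks at its own start sites and the remaining peaks in its own gene body are shown on the x axis. At Foxp3 most of the gene-body sum is the peak from −14.99 to −4.08 kb, upstream of the main promoter. Most of the Foxp3 start-site sum is the intronic peak from 1.38 to 6.87 kb. KO 2 is the highest library in the windows of Foxp3, Ikzf2 and Ikzf4, and KO 1 in that of Nrp1.

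Taken by peak, 119 of the 142 peaks had at least 10 counts in at least 2 libraries and were tested. edgeR and DESeq2 called none of them at an adjusted p under 0.05, and among all 74550 tested peaks edgeR called 1 (0.00134%). At an unadjusted p under 0.05, edgeR had 3 higher and 1 lower, against 1.45% higher and 2.79% lower among all tested peaks. DESeq2 had 1 higher and 0 lower at that level, against 445 higher and 1023 lower among all 74550 tested peaks. A ratio above 0 was found for 8 of 10 tested peaks at Foxp3, 44 of 56 at Ikzf2, 6 of 8 at Ikzf4 and 25 of 45 at Nrp1. In all, 83 of 119 (69.7%) had a ratio above 0, compared with 49.2% of all tested peaks, and 35 had the groups apart with KO higher, while 12 had them apart with KO lower, against 16.9% and 16.4% of all tested peaks.

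The ratio of all peaks moved with their level, and the 4 genes hold many strong, wide peaks. Over the deciles of tested peaks by mean CPM, the median log2 ratio of all peaks ran from −0.18 in decile 3 to 0.16 in decile 10, the highest, in which 74.2% were above 0. Of the 119 peaks, 24 were in decile 10, and 22 of these had a ratio above 0. Set against the median of all peaks of that decile, 12 of the 24 were above it and 12 below. In the other deciles, 63 of 95 were above the median of their own decile: 6 of 8 at Foxp3, 29 of 41 at Ikzf2, 4 of 6 at Ikzf4 and 24 of 40 at Nrp1. Peaks of 2 kb or more had a ratio above 0 in 28 of 31 cases at the 4 genes and in 69.9% of cases among all 9084 tested peaks of that width, with medians of 0.14 in both. The part of signal level in the ratios of the 4 genes was not tested beyond these values and the loess offset.

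**Figure D4:**
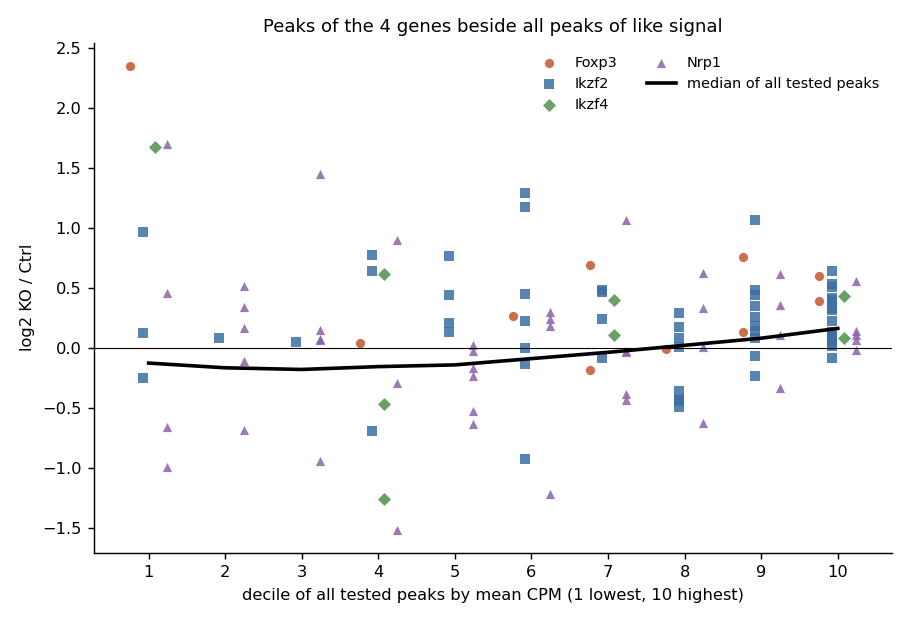
The log2 ratio of KO over Ctrl (y axis) of each tested peak of the 4 genes by the decile of all tested peaks that its mean CPM falls in (x axis, 10 is highest). The black line is the median of all tested peaks in each decile and runs from −0.13 in the lowest to 0.16 in the highest.

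Related genes were set beside the 4 by their windows, without a test of any list. In the Ikaros family, 4 of 5 windows were above 0 with a median of 0.29, or 0.05 under the loess offset. In these 4 each KO library exceeded each Ctrl library, an order that 11.9% of all tested windows had. Ikzf2 and Ikzf4 themselves are in this list and among these 4, so the list adds only Ikzf1, Ikzf3 and Ikzf5. Ikzf3, which encodes Aiolos, had 630 and 812 CPM in Ctrl and 906 and 1172 CPM in KO (log2 ratio 0.53, SE 0.22, unadjusted p 0.0404, adjusted p 1). Ikzf1, which encodes Ikaros, had 985 and 1044 CPM in Ctrl and 1125 and 1364 CPM in KO (log2 ratio 0.29, SE 0.19). The median of all 16106 windows was −0.01, with 7945 above 0 and 8161 below.

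Among 20 genes that help to switch on or maintain Foxp3 transcription, 11 windows were above 0 and 9 below, with a median of 0.06 that turned to −0.04 under the loess offset. Ets1, which encodes a T cell transcription factor, was higher at an unadjusted p of 0.045, with 1046 and 1240 CPM in Ctrl and 1385 and 1773 CPM in KO (log2 ratio 0.47, adjusted p 1). Cbfb, which encodes the partner of the RUNX proteins, had 69.2 and 69.3 CPM in Ctrl and 45.8 and 51.3 CPM in KO (log2 ratio −0.51, SE 0.26, unadjusted p 0.0769). Bcl11b, which encodes a zinc finger factor of the T cell lineage, had 1069 and 1340 CPM in Ctrl and 1293 and 1698 CPM in KO, and the groups overlapped.

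Of 10 genes whose proteins bind FOXP3 or act with it, 8 windows were above 0 and 2 below, with a median of 0.26, or 5 and 5 with a median of 0.0 under the loess offset, and none had an unadjusted p under 0.05. Irf4, a factor of effector Treg cells, had 294 and 247 CPM in Ctrl and 384.5 and 352 CPM in KO (log2 ratio 0.45, SE 0.22). Gata3, a factor of tissue Treg cells, had 310 and 276 CPM in Ctrl and 358 and 410 CPM in KO (log2 ratio 0.39, SE 0.22). Foxp1, the forkhead relative of Foxp3, had 1193 and 1211 CPM in Ctrl and 1489 and 1406 CPM in KO (log2 ratio 0.27, SE 0.18). In these 3, named for the smallest p of the list, each KO library exceeded each Ctrl library. Over the 10 genes the groups were apart with KO higher in 4 and with KO lower in 1. Among all tested windows, 11.9% had the first order and 16.8% the second.

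Surface molecules of Treg cells gave the most one-sided list: 13 of 14 windows were above 0, with a median of 0.29 (12 of 14 and 0.15 under the loess offset). In 10 of the 14 the groups were apart with KO higher, and in 1 with KO lower, against 11.9% and 16.8% of all tested windows. A peak shared by neighbouring windows is counted in each, so genes of the list that lie side by side are not separate counts. Ctla4, the inhibitory receptor of CD80 and CD86, had 632 and 680 CPM in Ctrl and 849.5 and 949 CPM in KO (log2 ratio 0.46, SE 0.19, unadjusted p 0.0423, adjusted p 1). Izumo1r, which encodes folate receptor 4, had 357 and 425 CPM in Ctrl and 507 and 557 CPM in KO (log2 ratio 0.44, SE 0.21). Icos, a costimulatory receptor, had 152 and 162.5 CPM in Ctrl and 193 and 234 CPM in KO (log2 ratio 0.44, SE 0.23). The lower one was Nt5e, which encodes the ectonucleotidase CD73 and is named here after its values were seen, with 397 and 359 CPM in Ctrl and 331 and 341 CPM in KO (log2 ratio −0.17, SE 0.21). No gene of the list passed the test over all windows.

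The 7 partners and ligands of neuropilin-1 were mostly low, with a median window of 16.9 CPM, and 4 were above 0 and 3 below, or 3 and 4 under the loess offset. Sema3a and Vegfa, which encode ligands, stayed under 20 CPM in every library. Of 4 genes of Treg cells induced outside the thymus, 3 windows were above 0. Il10, the gene of an inhibitory cytokine, had 348 and 270 CPM in Ctrl and 419 and 303 CPM in KO. In Il10 the groups overlapped, and Il23r, the gene of a cytokine receptor, was the lowest of the list in every library.

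**Figure D5:**
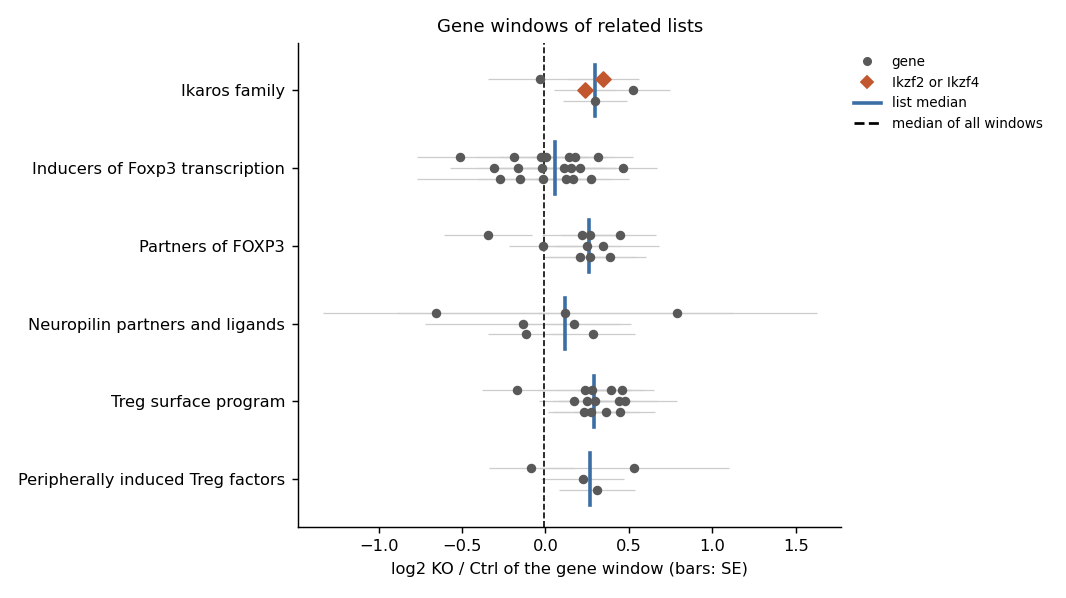
The log2 ratio of KO over Ctrl of each gene window (x axis, bars are SE) in 6 lists of related genes (y axis). Blue bars are list medians, diamonds are Ikzf2 and Ikzf4, and the dashed line is the median of all windows at −0.01.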

How the data were processed

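The authors mapped the CUT&Tag reads to mm10 with Bowtie2, kept uniquely mapped reads without duplicates, called peaks with MACS2 against IgG, merged the peaks of the libraries with bedtools and counted reads in them. The deposited values were raw counts per merged peak, with no normalization. An IgG library has no column in the counts and was not analysed here. Versions of the upstream tools are not given in the sources used here. Because peaks were called on the same libraries, their borders depend on the signal compared.

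Peak starts were shifted by 1 base to count from 1. Peaks were assigned to genes of GENCODE release M21 by overlap of at least 1 base. Peaks that reached 10 counts in 2 or more of the 4 libraries were fitted with edgeR 4.0.16 (TMM, quasi-likelihood test, Benjamini-Hochberg over all tested peaks), and CPM are counts divided by the effective library size and brought to a common total. Sums over windows of 20 kb either side, start sites (3 kb) and gene bodies were fitted for all protein-coding genes with the same scaling. Start sites are those of protein-coding gene transcripts in the GENCODE basic set. At Foxp3 these include starts within 3 kb of intronic peaks but not the outermost start. The start-site sum therefore takes in intronic peaks, and the gene body sum takes in the peak upstream of the main promoter. The moderated spread of peaks took its prior from all peaks, with infinite prior degrees of freedom, so that a peak's own replicate spread did not enter its SE, and windows had 7.43 prior and 2 residual degrees of freedom. DESeq2 1.42.0, other scalings, count minimums, window sizes and leaving out each library were alternatives. The fits were tested on simulated data. With 2 libraries a group, p-values of sums rest on the spread between these libraries, moderated over all sums. Those of single peaks rest on the spread pooled over all peaks. None measures a spread beyond these libraries. H3K27ac per cell and the share of cells that carry it cannot be told apart in such pools. Peaks named per gene were the one at its start sites with the highest mean CPM, the 3 with the highest mean CPM, the higher and the lower one with the smallest p, and every tested peak in the Foxp3 gene. The genes, lists and tests were chosen with earlier results of these data known. Sequences came from GRCm38.p6 and RefSeq promoter entries, which 2 of the 4 genes matched. The motifs were those of factors known to act at Foxp3.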

Additional observations from a re-analysis of the deposited data

How the results depend on the processing

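No peak of the 4 genes passed an adjusted p of 0.05 under any alternative, the replicate block included, and the limits are those of 2 libraries a group. The deposited counts allowed 119 of the 142 peaks to be tested.

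The log2 ratio of the Foxp3 window lay between 0.06 and 0.68 when each library was left out in turn, that of Ikzf2 between 0.07 and 0.34, that of Ikzf4 between 0.24 and 0.4, and that of Nrp1 between 0.07 and 0.12. Under the loess offset on abundance Ikzf2 turned to −0.07 and Nrp1 to −0.12, and with at least 50 counts in 2 libraries Nrp1 turned to −0.01. The start-site sum of Ikzf2 turned to −0.04 without TMM, −0.22 with the loess offset, −0.1 with at least 50 counts and −0.05 with counts halved, and lay between −0.07 and 0.09 with a library left out. The Nrp1 gene body sum turned to −0.09 with the loess offset and −0.04 with at least 50 counts. With a library left out, the ranges were 0.11 to 0.74 (Foxp3), 0.27 to 0.54 (Ikzf4) and −0.01 to 0.24 (Nrp1) for start-site sums, and 0.05 to 0.63 (Foxp3), 0.1 to 0.39 (Ikzf2), −0.12 to 0.34 (Ikzf4) and 0.02 to 0.09 (Nrp1) for gene body sums. The cause was not tested.

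Single peaks changed sign as follows. With a library left out, the Foxp3 peaks from −3.70, −1.73, 11.69 and 13.99 kb ranged from −0.61 to 0.08, −0.3 to 0.41, −0.44 to 0.27 and −0.6 to 0.73, the Ikzf2 peak from 2.05 kb from −0.06 to 0.21, the Ikzf4 peaks from 11.05 and 18.92 kb from −0.12 to 0.34 and −0.06 to 0.22, and the Nrp1 peaks from −2.08 and 27.34 kb from −0.01 to 0.24 and −0.1 to 0.26. The Foxp3 peak from 11.69 kb was 0.05 with at least 5 counts and with any count. Under the loess offset the Ikzf2 peak from 2.05 kb was −0.11, the Ikzf4 peak from 18.92 kb −0.04, and the Nrp1 peaks from −2.08 and 27.34 kb −0.02 and −0.15. With at least 50 counts these were −0.04 (Ikzf2), −0.04 (Ikzf4) and −0.05 (Nrp1 from 27.34 kb).

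The 3 higher peaks at an unadjusted p under 0.05 became 1 in DESeq2, without TMM, with at least 50 counts and with counts halved, and 1 to 3 with a library left out. The 1 lower peak became 0 in DESeq2, with the loess offset, with at least 5 or 50 counts, with any count, with counts halved and in the robust fit, 2 without TMM, and 0 to 1 with a library left out.

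The replicate block changed calls. With the replicate number as a block, the Foxp3 window was 0.41 (edgeR adjusted p 0.000607), Ikzf2 0.23 (0.0058), Ikzf4 0.35 (0.0105) and Nrp1 0.10 (0.464). The gene body sums of Foxp3 and Ikzf2 were 0.38 (0.0214) and 0.27 (0.000729) under the block. That of Foxp3 is mostly the peak upstream of its main promoter, which also covers the start site of Ppp1r3f. In the block fit, 15 member peaks that were higher in KO and 2 that were lower had an unadjusted p under 0.05. Among all 74550 tested peaks, 3490 were higher and 3476 were lower at that level in the same fit. The block moved the called windows of all genes from 0 to 1632, 830 higher and 802 lower, and the called peaks from 1 to 211. No source says that equal numbers mark a shared litter or day, and with 2 pairs the correlation of the deviations of same-numbered libraries (0.24) cannot establish it, so the libraries share only a number here.

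For the lists of related genes, the scalings and the fit without KO 2 were chosen after seeing the data. Without KO 2, windows above 0 numbered 5 of 5 (Ikaros family, with Ikzf2 and Ikzf4 included), 8 of 20 (Foxp3 inducers) and 6 of 10 (FOXP3 partners). They numbered 11 of 14 (surface molecules), 4 of 7 (neuropilin) and 3 of 4 (induced outside the thymus), while the median of all windows moved to −0.06.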

Other observations

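The gene windows whose levels over the 4 libraries were most like each of the 4 genes, by the distance of mean-centred log2 CPM among 5773 to 5777 windows with at least 100 CPM and no shared peak, were the following pairs. For Foxp3 they were Lrsam1, which encodes a ubiquitin ligase (110 and 126 CPM in Ctrl, 123 and 188 in KO, distance 0.0355), and Fxyd1, which encodes a regulator of the sodium pump (distance 0.048). For Ikzf2 they were Nck2, which encodes an adaptor protein (888.5 and 933 CPM in Ctrl, 967 and 1169 in KO, distance 0.0166), and Patz1, which encodes a zinc finger factor (distance 0.0176). For Ikzf4 they were Axl, which encodes a receptor tyrosine kinase (267 and 268 CPM in Ctrl, 324 and 361 in KO, distance 0.0152), and Zc3h12d, which encodes an RNA-binding protein (distance 0.0457). For Nrp1 they were Etfb, which encodes a subunit of a mitochondrial electron carrier (163 and 154 CPM in Ctrl, 174 and 170 in KO, distance 0.0233), and Hist2h4, a histone H4 gene (distance 0.0347). With 4 libraries that share their depth and scaling, a match of this kind is a description only.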
